A study of Mus musculus with 40 samples.

Results

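Monocytes were followed along a path with 3 stations: blood of healthy mice, blood of mice with colon tumors, and the colon tumors themselves. The 12 samples chosen were all those labelled as monocytes, 4 at each station, out of 40 samples of sorted cells in 10 groups, and RNA-sequencing had been performed on each. Healthy mice were C57Bl6 without transgene or agent. Tumor-bearing mice, whose strain is read here as C57Bl6/Sv129 because the number that ends the label differs from sample to sample, carried Cdx2CreERT2 - Apc fl/fl and had received tamoxifen at 25 mg/kg at the age of 8 to 10 weeks; Cre under the Cdx2 promoter then deletes Apc in intestinal epithelium, not by design in blood cells. The age of the healthy mice is not given in the sources used here. Disease, strain, transgene and tamoxifen therefore differ together between healthy and tumor-bearing mice and cannot be told apart, whereas both groups from tumor-bearing mice share them. The titles of 3 of the 4 healthy samples name 2 mice each, and every other title names 1. The gate stated for mouse monocytes was CD45+ EpCAM- CD11b+ MHCII- Ly6G- Ly6C-high, and the paper illustrates its gating on tumor cells. Tumor tissue was digested with enzymes whereas blood was not.

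Classical monocytes leave the bone marrow for the blood as Ly6C-high cells that use Ccr2 to reach the marrow exit and inflamed tissue. In blood, a part of them turns into Ly6C-low nonclassical monocytes that patrol vessel walls; in tissue, they can become macrophages, dendritic cell-like cells or cells that restrain T cells. Microbial products and cytokines drive NF-kB, a family of transcription factors that switches on cytokines, chemokines and its own inhibitors, whereas interferons drive a separate set of antiviral genes.

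Counts on genes totaled between 11737907 and 20229439 per sample, and mitochondrial genes took 17.88% to 31.82% of them. Across genes, the median Spearman correlation between samples was 0.929 between the blood groups, 0.919 within healthy blood and 0.915 within blood of tumor-bearing mice, against 0.809 between tumor-bearing blood and tumor. Healthy blood replicate 2 stood apart on the second principal component. Xist, the RNA of the inactive X chromosome in females, was at 5.12, 9.81, 32.0 and 0.0131 RPKM, the authors' measure of reads scaled to gene length and to the library, in healthy blood, at 15.3, 18.7, 0.0184 and 0.0272 RPKM in tumor-bearing blood, and at or under 0.0492 RPKM in the tumor samples. The 5 blood samples with high Xist also had the high hemoglobin values, Hbb-bs at 107 to 223 RPKM against 9.2 RPKM or less in the others. Ddx3y, a gene on the Y chromosome, was at 3.19, 2.35, 1.26 and 3.68 RPKM in healthy blood. It was at 1.44, 0.704, 3.24 and 3.58 RPKM in tumor-bearing blood and at 5.85 to 7.93 RPKM in tumor. Over the whole path Ddx3y rose by 1.84 on the log2 scale (edgeR adjusted p = 0.0114). The samples with high Xist thus also held RNA of a Y-linked gene, and the sex of the animals was not tested. The titles of tumor replicate 1 and tumor-bearing blood replicate 1 name the same animal, yet only the blood sample had high Xist. Results on the blood samples are therefore also given for the 7 samples with low Xist, which include a single healthy one.

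The defining genes of monocytes were present at every station. Csf1r, the receptor for the growth factor of monocytes and macrophages, was at 75.1 to 121 RPKM in healthy blood, 48.9 to 168 RPKM in tumor-bearing blood and 57.0 to 94.1 RPKM in tumor, and the 3 ranges overlapped. Ly6g, the neutrophil antigen excluded by the gate, was at 1.25 to 5.93, 0.597 to 0.957 and 0.178 to 0.615 RPKM. Ly6c2, a gene of the Ly6C antigen used to sort, was at 31.4, 81.8, 13 and 21.8 RPKM in healthy blood, 8.73, 9.69, 5.06 and 3.77 RPKM in tumor-bearing blood, and 2.91, 5.72, 2.41 and 2.28 RPKM in tumor. Its whole-path log2 fold change was -3.14 (SE 0.55, edgeR adjusted p = 0.00115), so that the transcript fell although the stated gate takes cells with high surface Ly6C.

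**Figure D1:**
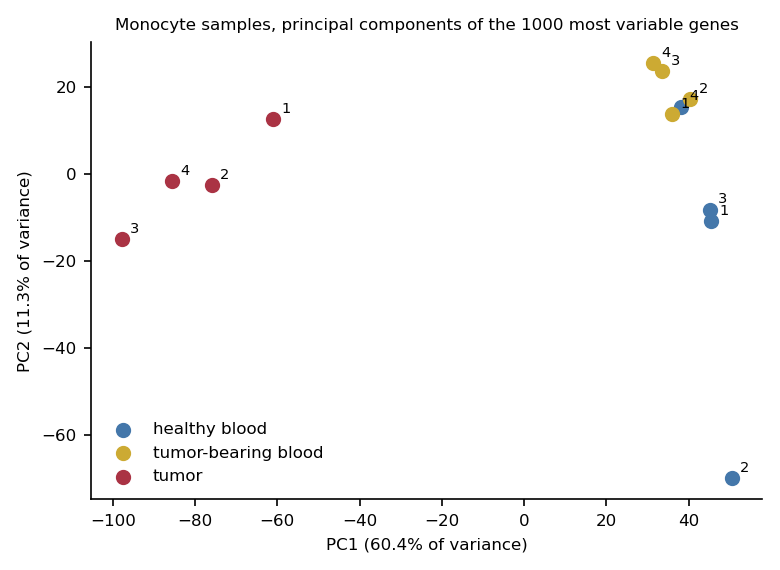
Principal components of log2 expression over the 1000 most variable genes, 1 point per sample, with the station as color and the replicate number beside the point. The first component, 60.4% of the variance, separates the tumor samples from all blood samples, and healthy blood replicate 2 lies far from the other blood samples on the second component, 11.3% of the variance.

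To ask which changes of tumor monocytes are already present in blood, the samples were tested in 1 fit with edgeR's quasi-likelihood test. The blood step compared blood of tumor-bearing with blood of healthy mice, the entry step compared tumor with blood of tumor-bearing mice, and the whole path compared tumor with healthy blood. Calls required an adjusted p (Benjamini-Hochberg, over the 16396 genes tested) under 0.05 together with a log2 fold change beyond 1.5 in either direction. Apart from the animal that 2 titles share, nothing in the labels pairs the samples, and the p-values measure the spread between these samples. In bulk samples, fewer cells of a type and less RNA per cell cannot be told apart.

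Over the whole path, 1379 genes rose (8.41% of those tested) and 923 fell (5.63%). On entry, 1285 genes rose (7.84%) and 793 fell (4.84%). The blood step had 18 genes that rose (0.11%) and 5 that fell (0.0305%), and in each of these 23 the healthy and tumor-bearing blood samples did not overlap. At an unadjusted p-value under 0.05 the blood step held 1429 genes, and the median absolute log2 fold change was 0.398 for the blood step against 0.763 for the entry step and 0.782 for the whole path. The split into higher and lower differed between settings that change the test, the scaling or the filter. On log2(RPKM + 0.1) with limma, 938 genes were higher and 1430 lower over the whole path and 894 higher and 1062 lower on entry; the blood step split into 15 and 14 on that scale, 8 and 17 on log2(RPKM + 1), 110 and 131 with DESeq2, 33 and 33 with at least 10 counts required in every sample, and 14 and 18 when fitted on its own 8 samples.

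Most of the path lay in the entry step. Of the genes tested, 1480 (9.03%) belonged to the tumor step, meaning that the whole path and the entry step were called in the same direction and the blood step was not; 979 of them rose and 501 fell. In 847 of them, 499 rising and 348 falling, the blood step was under 0.5 in absolute log2 fold change. The stepwise class, called in the same direction at both steps, held 4 genes (0.0244%), all rising. In 11 genes (0.0671%), 8 rising and 3 falling, the change was called in blood and over the whole path with no further call on entry. In 6 genes (0.0366%) the blood change was called and then reversed on entry, 4 rising first and 2 falling first. A further 804 genes called over the whole path had neither step called on its own. As a description, the blood step of each gene called over the whole path was set as a percentage of its whole-path change; both use the same healthy samples. The median was 15.1%. The blood step covered less than 25%, in either direction, in 1291 genes (56.1%) and 25 to 75% in 730 (31.7%). It came within 25% of the full change in 102 genes (4.4%), went beyond that in 11 (0.5%), and pointed the other way by more than 25% in 168 (7.3%).

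**Figure D2:**
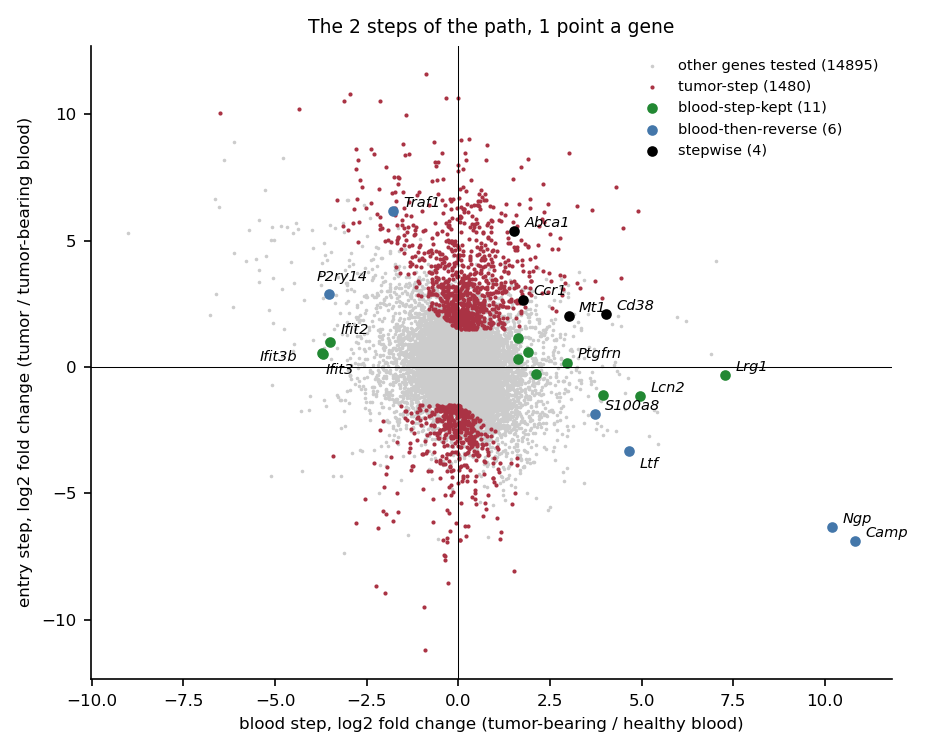
Log2 fold change of the blood step (x axis) against that of the entry step (y axis), 1 point per gene tested, colored by class; both axes use the tumor-bearing blood samples. The 1480 tumor-step genes form a band that is tall and narrow, with the 4 stepwise genes at upper right and the reversing genes in the opposite quadrants.

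Interferon-stimulated genes encode antiviral proteins. All 20 listed members had a blood-step log2 fold change below 0, with a median of -1.89 against 0.032 over all genes. In that step 2 of the 20 passed the test, where 0.0305% of all genes fell. Over the whole path 11 fell and 1 rose, where 5.63% of all genes fell and 8.41% rose. On entry the median was 0.06, with 2 members rising and none falling, near the shares over all genes (7.84% and 4.84%). Ifit3, which binds viral RNA together with its relatives, was at 25.6, 19.0, 7.74 and 17.6 RPKM in healthy blood, 2.61, 1.08, 0.632 and 0.662 RPKM in tumor-bearing blood, and 1.35, 2.63, 1.06 and 1.04 RPKM in tumor. All healthy samples lay above all others, and the other groups overlapped. The blood-step log2 fold change was -3.72 (SE 0.52, edgeR adjusted p = 0.00992) and that of entry was 0.56 (SE 0.47, edgeR adjusted p = 0.454). Ifit3b, a neighbouring near-identical copy whose reads may be shared with Ifit3, fell by 3.70 on the log2 scale in the blood step (SE 0.51, edgeR adjusted p = 0.00992). Ifit2, at 37.8, 17.7, 10.1 and 28.3 RPKM in healthy blood against 1.12 to 3.31 RPKM in tumor-bearing blood and 0.464 to 4.61 RPKM in tumor, fell by 3.51 (SE 0.60, edgeR adjusted p = 0.0412). These 3 genes lie in a cluster on chromosome 19 of mm10, Ifit2 at chr19:34550694-34576419, Ifit3 at chr19:34583531-34588731 and Ifit3b at chr19:34607970-34613401, all on the plus strand.

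The whole list summed to 382, 264, 171 and 375 RPKM in healthy blood and to 108, 111, 53.5 and 52.2 RPKM in tumor-bearing blood, without overlap, and the healthy sample with low Xist, replicate 4, was among the high ones. In tumor it summed to 512 RPKM in replicate 1, above every healthy sample, and to 42.7 to 109 RPKM in the others. Cxcl10 alone made up 382 of the 512 RPKM in replicate 1. Some members that missed the blood-step threshold had changes of similar size. Usp18, which removes the ubiquitin-like protein Isg15, had a blood-step log2 fold change of -2.58 (edgeR adjusted p = 0.0696), and Mx1, an antiviral GTPase, of -2.14 (edgeR adjusted p = 0.115). Both fell over the whole path, by 2.51 and 2.68. The transcription factors Irf7 and Stat2, which drive this program, fell over the whole path by 1.93 and 2.07. Isg15 itself rose on entry by 2.17 (edgeR adjusted p = 0.042) and ended near its healthy level, at -0.05 over the whole path. The member that rose was Cxcl10, a chemokine for activated T cells, at 382 RPKM in tumor replicate 1 and 21.1 to 24.4 RPKM in the other tumor samples, against 5.05 to 17.2 RPKM in healthy blood and 0.481 to 3.61 RPKM in tumor-bearing blood. Its entry log2 fold change was 6.67 (edgeR adjusted p = 0.00142).

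The promoters of Ifit3, Ifit3b and Cxcl10 are shown because these genes took different courses on the path although each carries an interferon response element, here GAAA, any 2 bases and GAAA. The sequences are the 250 bases before the RefSeq start site (GRCm38.p6), written along the gene's strand, and both strands were searched. Capitals mark matches to that element or its complement and, in Cxcl10, also to the NF-kB letters, GGGA, any 4 bases and CC. Ifit3 and Ifit3b are on the plus strand at chr19:34583279-34583528 and chr19:34607707-34607956, and Cxcl10 is on the minus strand at chr5:92348890-92349139.
Ifit3: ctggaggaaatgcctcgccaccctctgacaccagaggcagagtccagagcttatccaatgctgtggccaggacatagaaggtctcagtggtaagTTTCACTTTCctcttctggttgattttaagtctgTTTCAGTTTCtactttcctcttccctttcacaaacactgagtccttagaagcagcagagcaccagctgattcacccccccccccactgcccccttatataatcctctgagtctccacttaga
Ifit3b: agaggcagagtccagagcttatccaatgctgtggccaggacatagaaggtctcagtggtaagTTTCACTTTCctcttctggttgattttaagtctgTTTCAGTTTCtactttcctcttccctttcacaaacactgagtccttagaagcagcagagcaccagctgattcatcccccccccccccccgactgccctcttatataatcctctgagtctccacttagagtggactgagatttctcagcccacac
Cxcl10: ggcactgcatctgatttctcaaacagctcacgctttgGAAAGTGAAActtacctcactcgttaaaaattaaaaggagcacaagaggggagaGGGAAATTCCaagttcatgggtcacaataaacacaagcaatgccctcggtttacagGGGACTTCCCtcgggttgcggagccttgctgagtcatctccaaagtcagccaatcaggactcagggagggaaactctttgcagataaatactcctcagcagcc
Shifted by 32 bases against each other and without gaps, the Ifit3 and Ifit3b windows were identical at 86.2% of 218 bases. The response element was present in 8 of the 16 listed interferon-stimulated genes with a window and in 2.92% of the 10257 tested genes with one. The Cxcl10 window held 2 NF-kB matches, at 159 to 150 and 103 to 94 bases before the start, besides the response element at 213 to 204. A match of letters is a description and not a measured binding site.

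Genes called higher in blood and kept in tumor were led by Lrg1, a secreted glycoprotein of the acute phase that is also stored in neutrophil granules. Lrg1 was at 0.0849, 0.0609, 0.0246 and 0.0125 RPKM in healthy blood, with 8 counts or fewer per sample, at 8.62, 10.8, 5.11 and 2.09 RPKM in tumor-bearing blood and at 4.58, 2.58, 6 and 4.28 RPKM in tumor. All samples of tumor-bearing mice lay above all healthy ones, and their blood and tumor overlapped. The blood-step log2 fold change was 7.27 (SE 0.69, edgeR adjusted p = 0.000378). Ptgfrn, a membrane protein that associates with tetraspanins and binds the prostaglandin F receptor, went from 0.158 to 0.241 RPKM in healthy blood to 1.16 to 1.75 RPKM in tumor-bearing blood and 0.946 to 1.61 RPKM in tumor (blood step 2.96, SE 0.29, edgeR adjusted p = 0.000378). A small sense intronic gene lies within Ptgfrn, so its reads are uncertain in part. Lcn2, which withholds iron from bacteria, was at 0.129 to 1.08 RPKM in healthy blood, 12.9, 3.78, 27.9 and 25.1 RPKM in tumor-bearing blood and 3.48 to 8.54 RPKM in tumor, with a blood step of 4.95 (edgeR adjusted p = 0.0145). Smaller changes of this kind were those of Abca13, a lipid transporter (3.96), Bst1, an ectoenzyme related to Cd38 whose gene overlaps Fbxl5 (2.12), and Siglece, an inhibitory receptor for sialic acids (1.91). None of these 6 genes was called on entry.

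The 4 genes that rose in blood and reversed on entry all belong to the neutrophil marker list. Ngp, a neutrophil granule protein, was at 0.0617, 0.0551, 0.0254 and 0.0194 RPKM in healthy blood (5, 3, 2 and 1 counts), at 63.0, 22.6, 33.1 and 49.95 RPKM in tumor-bearing blood, and at 0.116, 0.173, 1.1 and 0.262 RPKM in tumor. The tumor-bearing blood samples stood above all others and the tumor samples above all healthy ones. The log2 fold change was 10.20 in the blood step (SE 0.87, edgeR adjusted p = 0.000308), -6.36 on entry (SE 0.71, edgeR adjusted p = 4.37e-05) and 3.84 over the whole path. Camp, an antimicrobial peptide of the same granules, had 0 counts after rounding in every healthy sample. In tumor-bearing blood it had 530, 19, 166 and 255 counts, at 0.376 to 9.76 RPKM. The group average was at least 88.9-fold higher against a floor of 3 counts per sample, which does not hold for replicate 2 alone. In tumor Camp was at 0 to 0.0842 RPKM. Ltf, the iron-binding lactoferrin, was at 0.091 to 0.24, 2.64 to 5.90 and 0.188 to 0.604 RPKM (blood step 4.65, edgeR adjusted p = 0.00089; entry -3.33, edgeR adjusted p = 0.00024). S100a8, a subunit of calprotectin, was at 2.10, 9.37, 2.88 and 1.78 RPKM, then 31.0 to 68.3 RPKM, then 3.86 to 19.3 RPKM (blood step 3.72, edgeR adjusted p = 0.0412).

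Of the 16 neutrophil and granule markers, 5 rose in the blood step, where 0.11% of all genes did, and none fell. On entry 6 fell, where 4.84% of all genes did. Over the whole path 3 rose and 2 fell, against 8.41% and 5.63% of all genes. The summed level of the markers was 35.5 to 129 RPKM in healthy blood, 126 to 337 RPKM in tumor-bearing blood and 41.1 to 78.5 RPKM in tumor. The listed genes did not move together. The surface antigen Ly6g had a blood-step log2 fold change of -1.96 (edgeR adjusted p = 0.228), against calls in Ngp, Camp, Ltf, Lcn2 and S100a8, and Csf3r and Cxcr2, receptors of mature neutrophils, had 0.25 and 1.03. Genes of early granules, which granulocyte and monocyte precursors both make, had blood-step values of 5.21 for Mpo, 2.57 for Prtn3, 2.44 for Elane and 0.04 for Ctsg, none of which passed the test, and Elane fell on entry by 5.66 (edgeR adjusted p = 0.00868). The part of neutrophils or precursors in the granule values was not tested.

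A pair of genes fell in blood and rose on entry. Traf1, an adaptor of TNF receptors and itself an NF-kB target, was at 0.708, 0.265, 0.483 and 0.261 RPKM in healthy blood, 0.15, 0.117, 0.101 and 0.0875 RPKM in tumor-bearing blood and 5.54, 9.67, 6.2 and 6.26 RPKM in tumor. The 3 groups did not overlap, with tumor-bearing blood lowest. The log2 fold change was -1.78 in the blood step (SE 0.30, edgeR adjusted p = 0.0412) and 6.18 on entry (SE 0.36, edgeR adjusted p = 2.61e-07). P2ry14, the receptor for UDP-sugars, was at 0.375 to 1.35, 0.0341 to 0.0933 and 0.130 to 0.674 RPKM, with -3.53 in the blood step and 2.91 on entry; its gene overlaps Med12l on the other strand.

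Ccr1, Abca1, Mt1 and Cd38 were the 4 stepwise genes. Ccr1, a receptor for the chemokines Ccl3, Ccl6 and Ccl9, was at 1.15, 1.88, 0.974 and 1.10 RPKM in healthy blood, 2.41, 3.79, 5.38 and 4.43 RPKM in tumor-bearing blood and 23.6, 21.6, 16.2 and 24.6 RPKM in tumor. No group overlapped its neighbour. The log2 fold change was 1.75 in the blood step (SE 0.30, edgeR adjusted p = 0.0412) and 2.67 on entry (SE 0.30, edgeR adjusted p = 5.16e-05). Mt1, a metallothionein that binds zinc and copper, was at 0.479 to 0.769, 2.97 to 5.74 and 9.16 to 22.2 RPKM, with its larger change in the blood step (3.01, edgeR adjusted p = 0.00826; entry 2.02, edgeR adjusted p = 0.00179). Abca1, which exports cholesterol, was at 0.166 to 0.389, 0.619 to 0.850 and 16.5 to 27.6 RPKM, with its larger change on entry (blood 1.52, edgeR adjusted p = 0.0366; entry 5.37, edgeR adjusted p = 1.41e-07). Cd38, an ectoenzyme that consumes NAD, was at 0.0740 to 0.504, 1.19 to 7.54 and 6.92 to 19.4 RPKM, so that tumor-bearing blood replicate 3 overlapped the tumor samples (blood 4.02, edgeR adjusted p = 0.0429; entry 2.08, edgeR adjusted p = 0.036); a sense intronic and an antisense gene overlap it.

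The blood-step calls differed in how they held up. The lowest counts of blood-step calls, 7 each, were obtained without tumor-bearing blood replicate 3 or replicate 4; it was 9, 12 and 13 without healthy replicates 1, 2 and 3, and 14 and 13 without tumor replicates 2 and 4. Of the 19 blood-step genes named above, Lrg1, Ngp, Ltf, Ptgfrn and Mt1 kept their call whichever sample was left out. Ifit3 and Ifit3b lost it without tumor-bearing blood replicate 3 or 4, Abca13 without healthy replicate 1, Lcn2 without healthy replicate 1 or 2 or tumor-bearing blood replicate 3 or 4, and Ccr1, Abca1, Cd38, Traf1, P2ry14, Ifit2, Siglece, Bst1, Camp and S100a8 each lost it on leaving out any 1 of 8 or more samples. Between 1 and 4 genes were stepwise, 3 to 15 kept and 2 to 9 reversed when 1 sample was left out. In the 7 samples with low Xist none of the 23 blood-step genes passed the test (edgeR, lowest adjusted p = 0.385), but with a single healthy sample, and with blood groups that did not overlap to begin with, neither the test nor the direction there says whether a call holds. With Xist as a covariate 13 of them had an edgeR adjusted p under 0.05. The replicate block, a fit with the replicate number added, lost the calls of Ccr1, Cd38, Traf1, Bst1, Camp and S100a8.

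**Figure D3:**
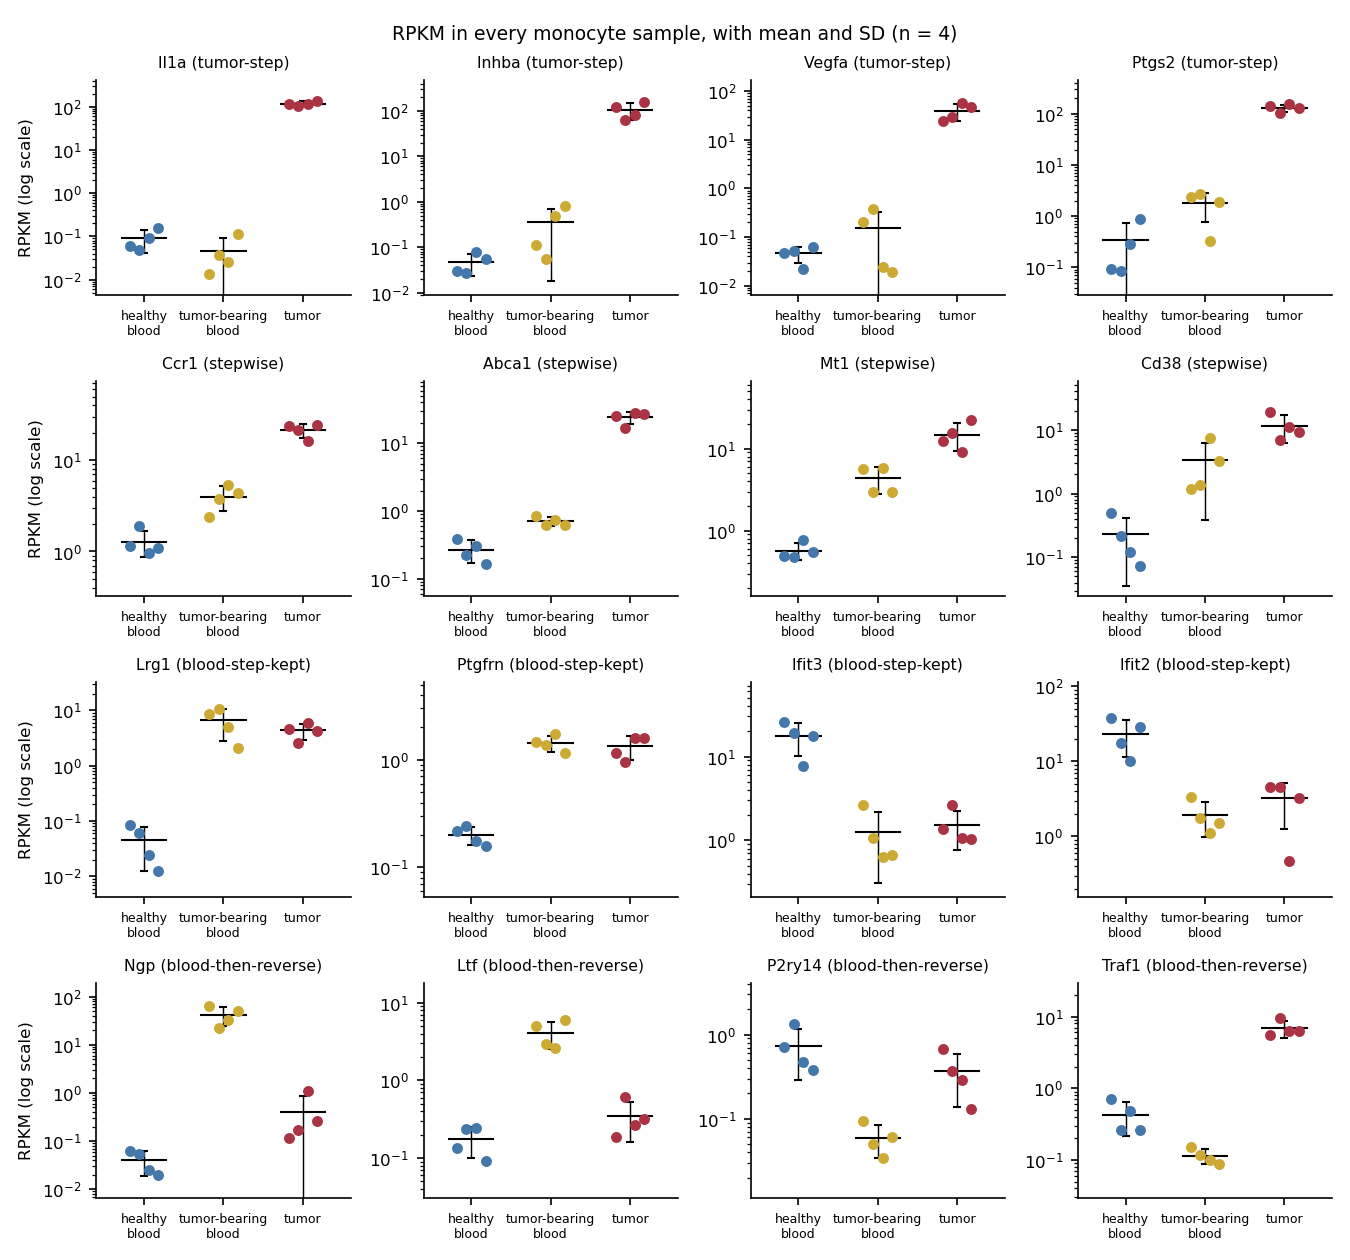
RPKM of 16 genes on a log axis, 1 point per sample at each of the 3 stations, with the mean as a line and the SD as a bar; a bar that leaves the panel reaches 0 or below. Ifit3 drops between the blood groups and stays low, Ngp peaks in tumor-bearing blood, Ccr1 climbs at both steps and Il1a is near 0.1 RPKM in blood and above 100 RPKM in tumor.

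A looser description counted genes whose RPKM was completely ordered, every sample of tumor-bearing blood lying between all healthy and all tumor samples. There were 61 such genes rising (0.372% of those tested) and 151 falling (0.921%). Of these, 58 and 97 were called over the whole path, and 4 and 0 had an adjusted blood-step p-value under 0.05 in the edgeR fit. RPKM does not use the TMM scaling factors of that fit, which were 0.7349 to 0.9255 in tumor and 0.8443 to 1.214 in blood. On counts scaled by library and TMM, 172 genes were completely ordered, against 212 on RPKM. The number of ordered genes thus depends on the scaling, and the split of the 172 into rising and falling is not given here. The rising genes with the largest blood step included Trem1, a receptor that amplifies responses of myeloid cells, at 0.0804 to 0.216, 0.385 to 1.09 and 13.8 to 55.7 RPKM, and Arg2, a mitochondrial arginase whose gene overlaps Vti1b, at 0.00915 to 0.750, 0.938 to 5.41 and 21.4 to 33.0 RPKM. Among the falling genes were Spn, the sialophorin of nonclassical monocytes, at 4.48 to 8.60, 1.15 to 3.58 and 0.470 to 0.658 RPKM, and Slfn1, a regulator of leukocyte growth, at 38 to 73.3, 16.6 to 24.1 and 3.15 to 16.0 RPKM.

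Most of the listed cytokines changed on entry. Of 18 tested cytokines and growth factors, 13 rose over the whole path and 13 on entry, where 8.41% and 7.84% of all genes rose. None of the 18 fell, and none was called in the blood step, where 0.11% of all genes rose. The median log2 fold change of the list was 5.40 over the whole path and 0.27 in the blood step. Il1a, an alarm cytokine that acts through the interleukin-1 receptor, was at 0.0603, 0.0493, 0.0935 and 0.158 RPKM in healthy blood, 0.0132, 0.0371, 0.0255 and 0.112 RPKM in tumor-bearing blood and 114, 103, 117 and 139 RPKM in tumor. The blood groups overlapped and the tumor samples lay far above. The entry log2 fold change was 11.59 (SE 0.59, edgeR adjusted p = 1.17e-07) and that of the blood step -0.87 (SE 0.55, edgeR adjusted p = 0.72). Il1b, which shares the receptor, was at 2.65 to 10.4, 2.51 to 10.6 and 339 to 443 RPKM, and Il1rn, the natural antagonist at that receptor, at 2.72 to 4.03, 0.920 to 2.64 and 114 to 206 RPKM.

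Growth factors followed. Inhba, the subunit of activin A, a ligand of the TGF-beta family, had the largest whole-path change under the naming rule, 11.48 (SE 0.90, edgeR adjusted p = 1.87e-06). It was at 0.0301, 0.0268, 0.0798 and 0.0555 RPKM in healthy blood (10 counts or fewer per sample), 0.113, 0.0562, 0.493 and 0.793 RPKM in tumor-bearing blood and 124, 64.7, 80.6 and 160 RPKM in tumor. Tgfb1 had 1.03 over the whole path and was not called. Vegfa, which drives vessel growth, was at 0.0222 to 0.0628, 0.0194 to 0.375 and 24.6 to 56.4 RPKM. Areg and Hbegf, ligands of the EGF receptor, rose over the whole path by 7.74 and 7.34 on the log2 scale, to 3.04 to 12.6 and 0.305 to 2.55 RPKM. Csf1 was lower in every tumor-bearing blood sample than in every healthy one (0.0983 to 0.244 against 0.443 to 0.904 RPKM; blood step -2, edgeR adjusted p = 0.0856) and rose on entry by 3.39.

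Of 14 tested chemokines, 11 rose over the whole path and 8 of them on entry as well, where 8.41% and 7.84% of all genes rose. None of the 14 was called in the blood step, where 0.11% of all genes rose. Neutrophil attractants had the largest changes. Cxcl2 was at 0.0886, 0.0796, 0.0827 and 2.74 RPKM in healthy blood, 5.87, 0.575, 0.263 and 2.89 RPKM in tumor-bearing blood and 82.5, 210, 132 and 262 RPKM in tumor, an entry change of 6.44 (edgeR adjusted p = 0.00455). The blood groups overlapped, and healthy replicate 4 was far above the other healthy samples. Cxcl3 and Cxcl1 rose over the whole path by 8.93 and 7.26. Among monocyte attractants, Ccl2 was at 0.752 to 4.00, 1.09 to 7.73 and 12.8 to 57.8 RPKM, while Ccl3, at 1.07 to 15.8, 7.47 to 72.8 and 36.0 to 138 RPKM, rose over the whole path by 3.51 without a call at either step. Of the constitutive chemokines of myeloid cells, Ccl6 and Ccl9 had whole-path values of -0.24 and 0.66.

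Among the 16 gene lists, NF-kB targets and feedback inhibitors had the highest share of members called over the whole path, 15 of 16. On entry 13 were called. All of these calls were rises, where 8.41% of all genes rose over the whole path and 7.84% on entry. The summed level of the list was 42.1 to 54.0 RPKM in healthy blood, 34.2 to 72.6 RPKM in tumor-bearing blood and 455 to 650 RPKM in tumor. Nfkbia, the inhibitor that NF-kB itself induces, was at 3.56, 5.03, 5.43 and 3.86 RPKM, then 5.23, 3.04, 2.88 and 3.83 RPKM, then 29.8, 39.5, 39.0 and 44.6 RPKM. The blood groups overlapped and the tumor samples did not reach them. Its log2 fold change was -0.17 in the blood step and 3.62 on entry (edgeR adjusted p = 9.8e-07). Tnfaip3, a deubiquitinase that ends the signal, rose on entry by 4.15, Cd83, an activation marker, by 6.94 and Sod2, the mitochondrial superoxide dismutase, by 3.46. The subunits Nfkb1, Nfkb2 and Relb rose less, by 1.92, 1.67 and 2.39. Birc3 was the member not called, with 1.44 over the whole path.

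The promoters of Cxcl2 and Nfkbia are given as examples of this group, with matches to the NF-kB letters or their complement in capitals. They are the 250 bases before the RefSeq start site (GRCm38.p6), at chr5:90903649-90903898 on the plus strand for Cxcl2, where the 2 matches overlap, and at chr12:55492648-55492897 on the minus strand for Nfkbia.
Cxcl2: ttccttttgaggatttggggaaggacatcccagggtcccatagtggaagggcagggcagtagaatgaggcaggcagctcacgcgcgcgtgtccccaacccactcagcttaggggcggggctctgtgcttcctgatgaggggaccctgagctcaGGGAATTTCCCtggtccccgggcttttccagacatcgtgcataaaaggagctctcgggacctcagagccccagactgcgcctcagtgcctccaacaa
Nfkbia: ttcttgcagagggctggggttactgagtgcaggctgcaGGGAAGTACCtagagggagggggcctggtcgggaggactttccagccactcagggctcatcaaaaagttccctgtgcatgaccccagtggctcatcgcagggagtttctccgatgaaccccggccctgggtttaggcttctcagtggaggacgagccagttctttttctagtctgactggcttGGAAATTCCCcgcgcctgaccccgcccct
The letters were present in 5 of the 11 members with a window (45.5%) and in 22.0% of all tested genes with one, but also in 8 of the 16 immediate early genes with a window. The AP-1 letters TGANTCA were in 2 of these 11 windows (18.2%) against 4.52%.

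Genes whose products are described to suppress T cells rose on entry in 8 of 12 tested, where 7.84% of all genes rose. None of the 12 was called in the blood step, where 0.11% of all genes rose. Cd274, which encodes PD-L1, was at 4.61, 5.21, 2.56 and 2.69 RPKM in healthy blood, 1.00, 1.00, 1.21 and 1.15 RPKM in tumor-bearing blood and 93.9, 26, 23.3 and 32.9 RPKM in tumor. All tumor-bearing blood samples lay below all healthy samples, with a blood step of -1.68 (edgeR adjusted p = 0.154), and the entry change was 5.61 (edgeR adjusted p = 5.98e-06). Arg1, the cytosolic arginase, was at 0.0681 to 0.331, 0.0724 to 0.776 and 7.01 to 40 RPKM, and Ptgs2, the inducible cyclooxygenase, at 0.0863 to 0.895, 0.323 to 2.75 and 104 to 153 RPKM. Nos2, the inducible nitric oxide synthase, was at or under 0.0571 RPKM in all blood samples and at 21.7, 0.619, 1.05 and 2.32 RPKM in tumor, so that tumor replicate 1 alone was high; Acod1, which makes itaconate, had the same sample highest, with 142 RPKM against 15.5 to 24.3 RPKM. Entpd1 and Nt5e, the ectoenzymes that turn ATP into adenosine, rose on entry by 3.17 and 4.26. Il10, with 3.21 over the whole path, and Lgals9, Vsir and Pdcd1lg2 were not called.

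Genes of glucose uptake and the hypoxia response rose on entry in 12 of 22 tested, where 7.84% of all genes rose. None of the 22 was called in the blood step, where 0.11% of all genes rose. Slc2a1, the glucose transporter, was at 2.42 to 3.36, 2.32 to 4.74 and 37.8 to 69.8 RPKM (entry 4.31, edgeR adjusted p = 1.2e-06). Hif1a, the oxygen-regulated subunit of the hypoxia factor, was at 2.09 to 5.78, 7.32 to 9.04 and 34.6 to 39.2 RPKM; it was completely ordered, with a blood step of 1.02 (edgeR adjusted p = 0.147) and an entry change of 2.43. Egln3, a hypoxia-induced oxygen sensor, rose over the whole path by 6 and Ero1l, an oxidase of the endoplasmic reticulum, by 3.86. Among the glycolytic enzymes, Pfkl, Hk2, Pfkp and Pgk1 were called over the whole path, with log2 fold changes of 2.26, 2.07, 2.03 and 1.72. Smaller values, none of them called, were 0.66 for Gapdh, 1.11 for Eno1, 1.28 for Aldoa and 1.41 for Pkm. Gpi1, Ldha, Tpi1 and Pgam1, also not called over the whole path, had 0.77, 1.04, 1.35 and 1.46. Gapdh, Eno1, Aldoa and Pkm averaged 0.945, 0.645, 0.225 and 1.05 RPKM in healthy blood. Gapdh and Aldoa have near-identical copies in the genome, so their reads are uncertain. The hypoxia letters ACGTG were in 11 of 21 promoter windows of this list (52.4%) and in 21.6% of those of all genes tested.

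Sensing and matrix genes also changed mainly on entry. Of 20 pattern recognition and scavenger receptors, 14 rose and 1 fell over the whole path. Of all genes, 8.41% rose and 5.63% fell, so the single fall is near the share over all genes. Cd14, the coreceptor for lipopolysaccharide, was at 3.92, 9.79, 7.90 and 5.13 RPKM in healthy blood, 35, 18.1, 12 and 9.86 RPKM in tumor-bearing blood and 276, 370, 352 and 525 RPKM in tumor. No group overlapped its neighbour, and the blood step of 1.55 did not pass (edgeR adjusted p = 0.153) whereas entry was 4.63. Clec4e, a receptor for mycobacterial glycolipid and dead cells, went from 0.866 to 2.02 RPKM to 2.15 to 4.92 RPKM and 56.7 to 68.5 RPKM; Nlrp3, the inflammasome sensor, stayed at 4.38 to 6.64 and 4.79 to 5.94 RPKM in blood and was at 46.4 to 53.3 RPKM in tumor. The member that fell was Tlr7, the endosomal sensor of single-stranded RNA, at 39.4 to 44.9, 19.0 to 35.3 and 9.94 to 11.9 RPKM. Of 19 matrix proteases and inhibitors, 12 rose over the whole path. Thbs1, a matrix glycoprotein that can activate latent TGF-beta, was at 1.5 to 4.36, 2.69 to 7.75 and 176 to 417 RPKM, and Timp1, an inhibitor of metalloproteinases, rose by 7.37. Mmp9 and Mmp8 were not called at either step.

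Of 20 genes of lysosome, lipid and iron handling, 8 rose and 2 fell over the whole path, where 8.41% of all genes rose and 5.63% fell. Hmox1, which degrades heme, was at 5.89 to 11, 5.06 to 9.16 and 20.4 to 85.3 RPKM, and Plin2, a coat protein of lipid droplets, at 6.59 to 12.7, 5.84 to 17.6 and 23.2 to 33.3 RPKM. Lpl and Lipa, which hydrolyze lipids outside the cell and in the lysosome, fell by 4.30 and 1.55.

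**Figure D4:**
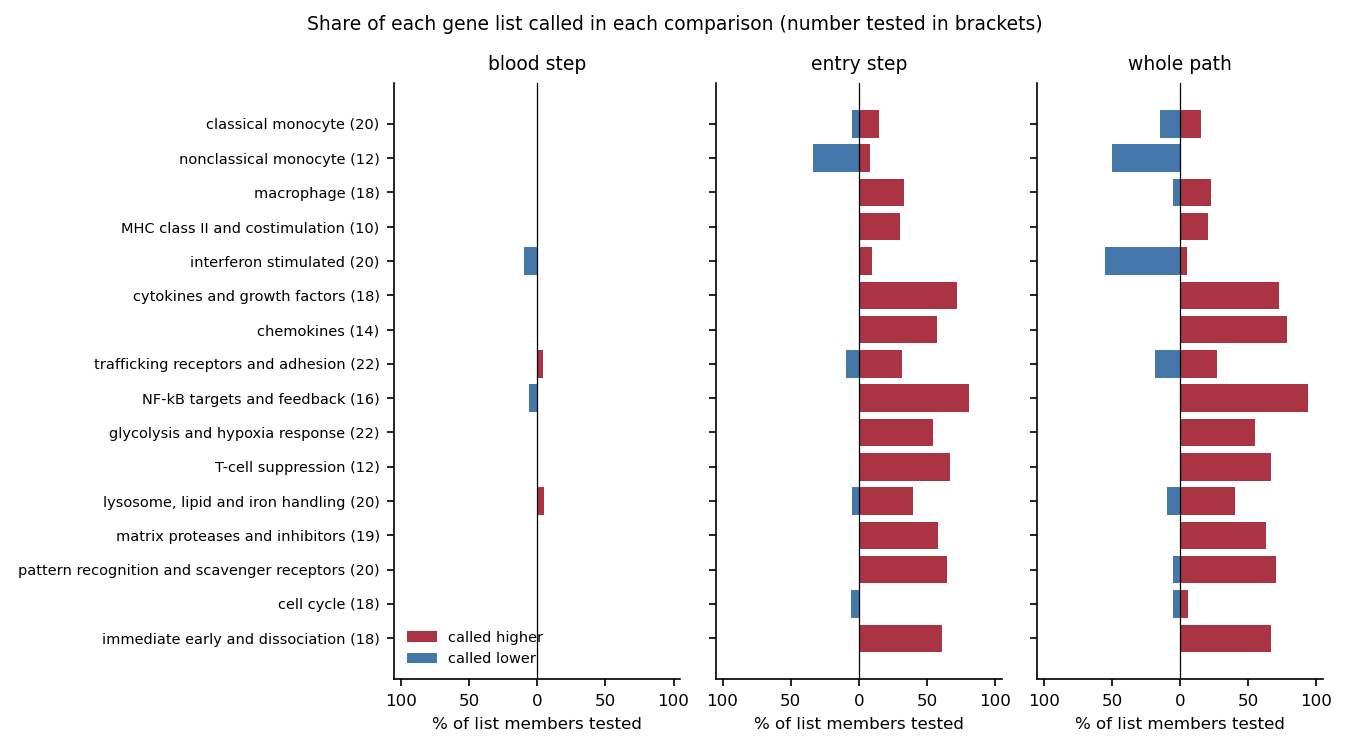
Percentage of the tested members of each of 16 gene lists that were called higher (right of 0) or lower (left of 0) in the blood step, the entry step and the whole path. Bars of the blood step are absent from 12 of the lists, and NF-kB targets, T-cell suppression and cytokines have the longest bars on entry.

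Genes that fell on the path included those of nonclassical monocytes. Of 12 tested, 6 fell over the whole path, 4 on entry and none in the blood step. Among all genes, 5.63%, 4.84% and 0.0305% fell. Cd36 alone rose on entry, near the share over all genes (7.84%). The blood-step median was -1.43, and 4 genes of the list were completely ordered and falling, where 0.921% of all genes were. Ace, the angiotensin-converting enzyme, was at 35.5, 24.6, 30.7 and 23.4 RPKM in healthy blood, 15.7, 13, 5.14 and 5.61 RPKM in tumor-bearing blood and 1.60, 2.21, 1.60 and 4.35 RPKM in tumor, in 3 groups without overlap. Its log2 fold change was -1.43 in the blood step (SE 0.37, edgeR adjusted p = 0.177) and -1.76 on entry (SE 0.38, edgeR adjusted p = 0.0053). Eno3, a muscle-type enolase used as a marker of these cells, was at 4.07 to 8.51, 1.02 to 2.05 and 0.0888 to 0.382 RPKM, and Cx3cr1, the fractalkine receptor, at 14 to 21.0, 6.22 to 16.4 and 0.896 to 5.42 RPKM. Nr4a1, the factor needed for nonclassical monocytes, was not called and had 1.04 over the whole path; it is also an immediate early gene. The list summed to 156 to 212 RPKM in healthy blood, to 147, 171, 65.7 and 73.0 RPKM in tumor-bearing blood and to 61.2 to 91.9 RPKM in tumor, so that the tumor-bearing blood samples with low Xist, replicates 3 and 4, were at the tumor level. The share of nonclassical cells in each sample was not measured.

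Other genes that fell under the naming rule were Calhm2, a channel subunit whose gene overlaps Pdcd11, at 8.27 to 10.3, 5.23 to 8.94 and 0.195 to 0.769 RPKM, Cd300lg, a lipid-binding receptor, at 4.23 to 6.27, 2.62 to 12.1 and 0.122 to 0.491 RPKM, and Cd180, a Toll-like receptor homolog whose gene overlaps Mast4, at 39.4 to 143, 21.8 to 38.5 and 4.07 to 6.73 RPKM. The platelet chemokine Ppbp had the largest fall, -8.56, with values given with the platelet markers. Of the 22 trafficking receptors and adhesion genes, 6 rose and 4 fell over the whole path, where 8.41% of all genes rose and 5.63% fell. S1pr5, which guides nonclassical monocytes out of the marrow, fell by 5.91, to 0.00937 to 0.0665 RPKM. Ccr2 stayed at 63.4 to 122 and 89.0 to 108 RPKM in blood and was at 23.9 to 49.5 RPKM in tumor; its change of -1.03 (edgeR adjusted p = 0.0107) was under the fold threshold. Cxcr4, the receptor that holds cells in the marrow, rose by 2.69, to 42.1 to 65.3 RPKM.

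Of 18 macrophage genes tested, 6 rose and none fell on entry, where 7.84% of all genes rose and 4.84% fell. Over the whole path 4 rose, among them Arg1, Spp1 and Gpnmb, and 1 fell, Siglec1, a sialic acid receptor. Of all genes, 8.41% rose and 5.63% fell over the whole path, so the single fall is near the share over all genes. C1qb, a complement subunit of tissue macrophages, was at 0.482 to 9.07, 0.183 to 4.47 and 4.42 to 15.1 RPKM. C1qb rose on entry by 2.71 and C1qc by 3.49. C1qa had 0 counts after rounding in every tumor-bearing blood sample, so its entry value of 8.18 depends on the prior count. C1qa was at 0.0419 to 0.366 RPKM in healthy blood and at 0.233 to 0.671 RPKM in tumor. None of these complement genes was called over the whole path. Mertk, Adgre1, Cd68 and Trem2 were not called. Of 10 genes of MHC class II and costimulation, those that rose over the whole path were Cd80, at 0.499 to 1.27, 0.504 to 1.38 and 28.8 to 49.8 RPKM, and Cd86, at 1.62 to 2.58, 1.99 to 2.95 and 17.5 to 25.1 RPKM. The MHC class II genes themselves, whose product the gate excludes, were not called. The whole list, costimulation genes included, summed to 50.1 RPKM in healthy replicate 4 against 332 to 378 RPKM in the other healthy samples. It summed to 27.3 and 42.1 RPKM in tumor-bearing blood replicates 3 and 4 against 203 and 658 RPKM. Among the blood samples, the low values were those with low Xist. The tumor samples, also low in Xist, summed to 181, 262, 254 and 433 RPKM. In the cell cycle list, 1 of 18 genes rose and 1 fell over the whole path, near the shares over all genes (8.41% and 5.63%). Mki67, a proliferation marker, was at 0.897 to 1.79, 2.20 to 4.50 and 2.48 to 4.36 RPKM, with a blood step of 1.37 (edgeR adjusted p = 0.117).

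Markers of other cells moved along the same path, and their part in the results above was not tested. Of 12 epithelial markers, 7 were tested. All 7 rose over the whole path and 6 rose on entry, where 8.41% and 7.84% of all genes rose. Epcam had 6 counts or fewer in healthy blood, 9 or fewer in tumor-bearing blood and 21, 1053, 440 and 314 in tumor. A gene this low in blood passes the count filter through tumor alone, so a rise of such genes is largely set by the filter. The 12 markers summed to 0.462 to 0.814 RPKM in healthy blood and 0.873 to 1.21 RPKM in tumor-bearing blood. In tumor replicates 1 to 4 they summed to 2.06, 46.0, 15.7 and 12 RPKM. Erythroid markers fell in 6 of 6 and platelet markers in 5 of 7 over the whole path, where 5.63% of all genes fell. The 7 samples with low Xist include a single healthy one. In them the hemoglobin genes Hbb-bs, Hbb-bt, Hba-a1 and Hba-a2 had whole-path values of 0.59, 0.65, 1.1 and 1.12. The platelet chemokine Ppbp was at 100, 92.6, 107 and 1.5 RPKM in healthy blood, 21.4, 33.6, 0.559 and 4.34 RPKM in tumor-bearing blood and 0.0409 to 0.269 RPKM in tumor. Lymphocyte genes Gzma and Nkg7 were at 10.9 and 3.61 RPKM in healthy replicate 1 and at or near 0 in all tumor samples, and their list summed to 2.16 to 44.7, 0.975 to 28.3 and 0.146 to 3.24 RPKM. Of 7 dendritic cell markers, 2 fell, where 5.63% of all genes did. Fibroblast, endothelial, and eosinophil and mast cell markers, with 4, 3 and 2 genes tested, had no call over the whole path, and the endothelial gene Cdh5 rose on entry.

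Immediate early genes are those that cells switch on within minutes of stress, signals or tissue digestion. They rose in 12 of 18 over the whole path and 11 on entry, where 8.41% and 7.84% of all genes rose. They summed to 202 to 271 RPKM in healthy blood, 556, 562, 164 and 172 RPKM in tumor-bearing blood and 578 to 1050 RPKM in tumor, so that tumor-bearing blood replicates 1 and 2 came close to the lowest tumor sample. Egr1 was at 0.868 to 4.42, 1.85 to 8.84 and 8.55 to 44.1 RPKM, and Hspa1a, a heat shock protein, at 0.379 to 1.40, 1.71 to 12.3 and 12.6 to 65.4 RPKM. Fos, Ier2 and Junb, of the same list, had whole-path values of 1.15, 0.30 and 1.08 and were not called. Tissue digestion was applied to tumor alone, so its part in the entry step and the whole path cannot be told apart from that of the tumor.

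**Figure D5:**
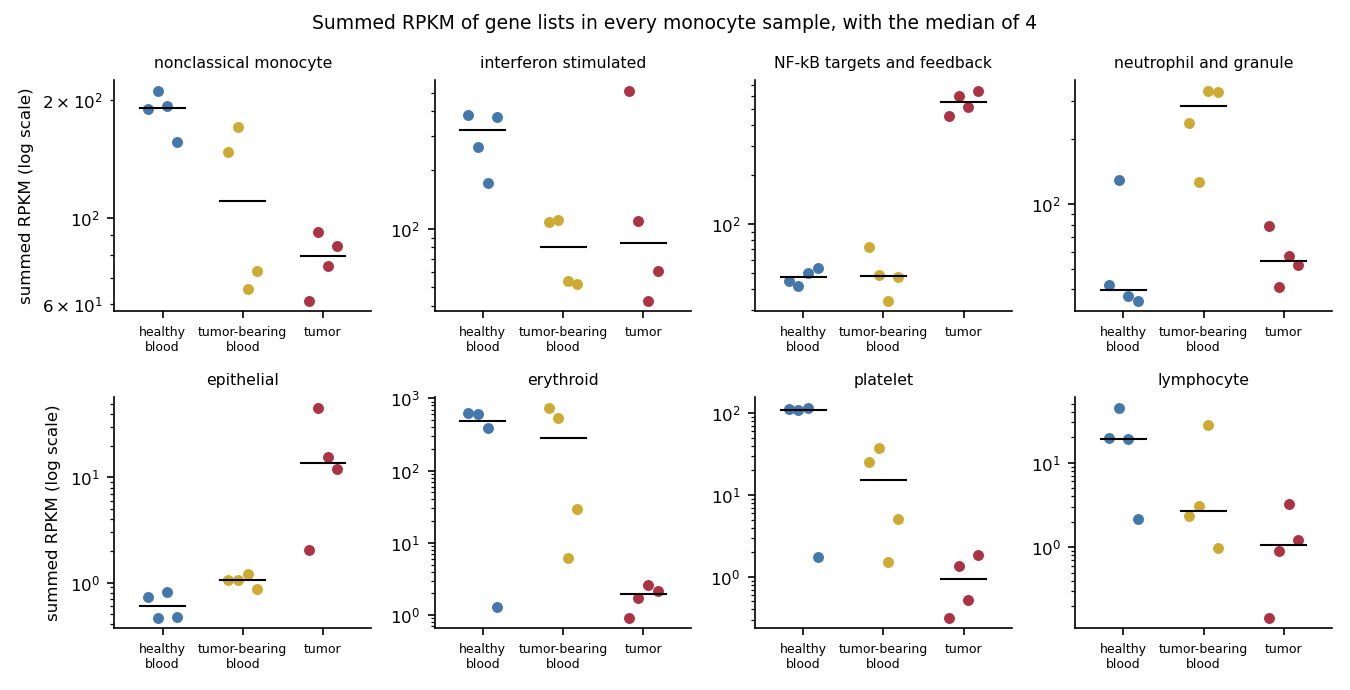
Summed RPKM of 8 gene lists, 1 point per sample at each station on a log axis, with the median as a line. NF-kB genes sit at 455 to 650 RPKM in tumor against at most 72.6 RPKM in blood, the interferon-stimulated sum is lower in tumor-bearing than in healthy blood and high in tumor replicate 1 at 512 RPKM, 382 of them from Cxcl10, and granule genes peak in tumor-bearing blood.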

How the data were processed

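RNA of sorted monocytes was prepared with the PicoPure kit and amplified before sequencing. Reads had been aligned by the authors to build mm10 of the mouse genome (Bowtie2) and assigned to genes with HTSstation; the annotation release, the treatment of reads with several places and the use of strand are not given in the sources used here, so overlapping, antisense and near-identical genes are uncertain. The authors deposited expected counts without normalization for 45706 genes and, from the same counts, RPKM values scaled to gene length and library. Of the nonzero counts 99.7% were not whole, and rounding moved a sample's total by at most 975. Symbols came from GENCODE M21, for 45143 genes.

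The 12 samples were grouped by their labels and fitted together, without covariates, in R 4.3.3 with edgeR 4.0.16 (quasi-likelihood, robust) after filterByExpr and TMM (factors 0.7349 to 1.214). The authors' stated tool, limma-voom (limma 3.58.1), was an alternative, besides DESeq2 1.42.0, RLE, other filters, fits of 8 or 40 samples, a replicate block, no fold threshold, log2(RPKM + 1) and log2(RPKM + 0.1), no mitochondrial genes, leaving out each sample, and, added after seeing the data, the 7 samples with low Xist and Xist as a covariate. The classes are those called by these contrasts. Single genes are given as RPKM per sample. SE is the standard error of the fitted log2 fold change.

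Named genes were the 10 called genes with the largest whole-path change in each direction among those averaging a log2 CPM of 5 or more without overlap, the 6 per class with the largest blood step and an average log2 CPM of 2 or more, the 5 ordered genes of each direction with the largest blood step, and up to 6 called or defining members of each list; further list members, and Xist and the marker genes, were picked once their values had been seen. The classes, gene lists, rules and promoter motifs were chosen with earlier results of these data known. Promoters are from RefSeq (GRCm38.p6), and 10257 tested genes had a window. Counts limit precision for genes with few counts in healthy blood, whose fitted fold changes depend on the prior count. A gene nearly absent from blood passes the filter through tumor alone, which favors a rise among the list members tested. Values of some list members are not reported here.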

Additional observations from a re-analysis of the deposited data

Results flagged for a closer look

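Among 210 groups of 4 values (named genes and summed lists, each within 1 station), 26 held 1 sample whose gap to the nearest other exceeded Dixon's critical value; chance alone flags about 1 in 20 such groups, and the groups are not independent. Tumor replicate 1 was high for Nos2 (21.7 RPKM against 0.619 to 2.32 in the others), Acod1 (142 against 15.5 to 24.3), Bst1 (5.92 against 2.10 to 2.41), Gm37498, a gene model inside Slc7a11 (14.3 against 6.45 to 7.68), and the summed interferon-stimulated genes (512 against 42.7 to 109). Cxcl10 alone made up 382 of that 512. The other tumor values were Ngp in replicate 3 (1.1 against 0.116 to 0.262), Nup210 in replicate 3 (0.164 against 0.414 to 0.433), Ifit3b in replicate 2 (2.30 against 0.917 to 1.14) and the summed lysosome, lipid and iron genes in replicate 4 (564 against 382 to 413).

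Healthy blood replicate 2, apart on the second principal component, was high for S100a8 (9.37 RPKM against 1.78 to 2.88), Ier3 (3.02 against 0.839 to 1.12), Nxpe4 (30.2 against 9.95 to 11) and the summed neutrophil (129 against 35.5 to 41.8), fibroblast (2.59 against 0.249 to 0.408) and eosinophil and mast cell markers (21.7 against 0.125 to 0.517), and low for Trem1 (0.0804 against 0.201 to 0.216). Healthy blood replicate 4, with low Xist, was high for Cxcl3 (0.183 against 0.00433 to 0.012) and Acod1 (0.431 against 0.0864 to 0.0949), and low for Ppbp (1.5 against 92.6 to 107), the summed platelet markers (1.75 against 109 to 116) and the summed MHC class II and costimulation genes (50.1 against 332 to 378). In blood of tumor-bearing mice the values apart were Acod1 in replicate 4 (0.195 against 0.0318 or less), Hspa1a in replicate 2 (12.3 against 1.71 to 2.45), Ier3 in replicate 1 (13.5 against 3.37 to 3.60), Nup210 in replicate 2 (4.38 against 1.36 to 1.75) and the summed lymphocyte markers in replicate 3 (28.3 against 0.975 to 3.06).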

How the results depend on the processing

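Of 356 values of 213 genes (those named by size in 1 comparison, and each list member in the comparisons that called it), 4 changed direction, all in the 7 samples with low Xist, where Hbb-bs, Hbb-bt, Hba-a1 and Hba-a2 had 0.59, 0.65, 1.1 and 1.12 over the whole path; over all alternatives 8243 kept their side of the threshold, 851 lost a call and 18 gained one. In the order blood step, stepwise, kept and reversed genes, the counts of 23, 4, 11 and 6 became 11, 0, 7 and 3 with limma-voom, 241, 37, 104 and 71 with DESeq2, and 66, 11, 33 and 14 with at least 10 counts in every sample. That filter also left 1197 entry, 1317 whole-path and 825 tumor-step genes. Stepwise and kept genes were 2 and 19 on the 8 samples of each comparison, and 1 gene was stepwise with all 40 samples. Without the fold threshold there were 3126 entry and 2307 tumor-step genes; log2(RPKM + 1) gave 520 entry, 749 whole-path and 428 tumor-step genes, with 1 stepwise and 19 kept. The 7 samples with low Xist gave 1 blood, 1085 entry, 561 whole-path, 468 tumor-step and 1 kept gene, and 0 stepwise and 0 reversed ones; Xist as a covariate gave 14 blood-step and 6 kept genes. On log2(RPKM + 0.1) the median of all genes moved to -0.27 on entry and -0.33 over the whole path. The cause of these differences was not tested.

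Leaving out 1 sample gave 7 to 31 blood-step, 1788 to 2513 entry, 2066 to 2573 whole-path, 1 to 4 stepwise, 1311 to 1695 tumor-step, 3 to 15 kept, 2 to 9 reversed and 232 to 371 ordered genes (212 with all samples, and fewer samples make an order easier), and 53.4 to 62.5% of whole-path genes with a blood step under 25% in either direction. Of the 23 blood-step genes, 10 were shared with limma-voom and 23 with DESeq2; of the 1480 tumor-step genes, 1295 and 1422. The replicate block gave 28 blood-step, 1916 entry, 2205 whole-path, 2 stepwise and 19 kept genes. Deviations of samples with the same number correlated at 0.081 to 0.238 between the blood groups and at -0.134 to -0.002 with tumor. The reported fit did not use the number as a pairing. Between the blood groups 7 of 8 samples correlated best with the other group's sample of their own number, and with tumor 0 of 8 did. What the blood samples of 1 number share was not tested. With the replicate block, 16 of the 23 blood-step genes were still called.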
